A study of Homo sapiens with 6 samples.

Results

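The genes described here encode the proteins that copy DNA at the replication fork, the enzymes that supply deoxynucleotides, and the factors that put histones and methyl groups back behind the fork. They are 36 genes chosen by name. A gene was measured when a probe set that the platform annotation assigns to it alone reached a deposited log2 value above that of a signal of 100 on at least 1 of the 6 arrays. Of the 36 genes 35 were measured, out of 8878 genes in the series, and 54 of their 67 probe sets lay over this limit. KHOS and U-2OS are established human osteosarcoma cell lines. Cells of each line received CDK11 siRNA at 40 nM, a nonspecific siRNA at 40 nM, or no transfection, and RNA was collected 48 h after siRNA transfection. Total RNA of 3 flasks was pooled for each array, with 1 array for each line and transfection, so that no difference within a line has a replicate and the 2 lines are the only replicates of a transfection.

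In a dividing cell, primase and polymerase alpha lay down short primers, the clamp loader puts the PCNA ring on them, and polymerases delta and epsilon extend the new strands from it. Ribonucleotide reductase and the thymidylate enzymes make the building blocks, while histone chaperones and maintenance DNA methylation restore chromatin on the daughter strands. Many of these genes are transcribed mainly around the G1 to S transition under the E2F factors, and their RNA is therefore a common readout of cells in S phase.

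The siRNA target was checked first. The brighter of the kept probe sets that the annotation gives to CDK11A together with CDK11B had log2 values of 7.64 with CDK11 siRNA, 9.92 with nonspecific siRNA and 9.69 untransfected in KHOS. In U-2OS it had 6.24 with CDK11 siRNA, 8.88 with nonspecific siRNA and 8.97 untransfected. The signal left was thus 20.6% of the nonspecific siRNA level in KHOS and 16.0% in U-2OS. The array medians over all probe sets lay between 2.92 and 2.98, and between 24.8% and 25.9% of the probe sets of an array lay over the limit. Of the osteoblast lineage markers on the table, 3 of 8 lay over the limit (RUNX2, COL1A1 and SPARC), as did all 3 mesenchymal markers. SP7, ALPL and IBSP, which also define the lineage, stayed under it in both lines. None of 3 blood cell markers was over the limit, and 1 of 3 epithelial markers, EPCAM, was over it in KHOS, with a highest value of 9.0.

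Each CDK11 siRNA array was first set against the nonspecific siRNA array of its own line, with each gene read from its brightest kept probe set. In KHOS most of the genes were lower with CDK11 siRNA, and in U-2OS their differences spread around 0. In KHOS the median log2 difference of the 35 genes was -0.33, against 0.00 over all genes, and 31 of the 35 lay below 0, against 49.6% of all genes. In U-2OS their median was -0.01, against 0.01 over all genes, and 19 of the 35 lay below 0, against 48.2% of all genes. Against a fold limit of 1.5, 11 genes were lower in KHOS (POLA2, PRIM1, POLD1, POLE2, RFC4, RRM2, TK1, CHAF1B, ASF1B, TIPIN and HELLS), which is 31.4% of them beside 7.78% of all genes. CHAF1B passed the signal limit only on the KHOS controls, which favours a lower value with CDK11 siRNA there. None was higher by 1.5-fold in KHOS, beside 5.98% of all genes. In U-2OS only HELLS was lower by 1.5-fold, beside 3.85% of all genes, and only POLA1 was higher, beside 4.05%. These counts come from 1 array against 1 array in each line and carry no test. In bulk RNA, fewer cells in S phase and less RNA per cell cannot be told apart.

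**Figure D1:**
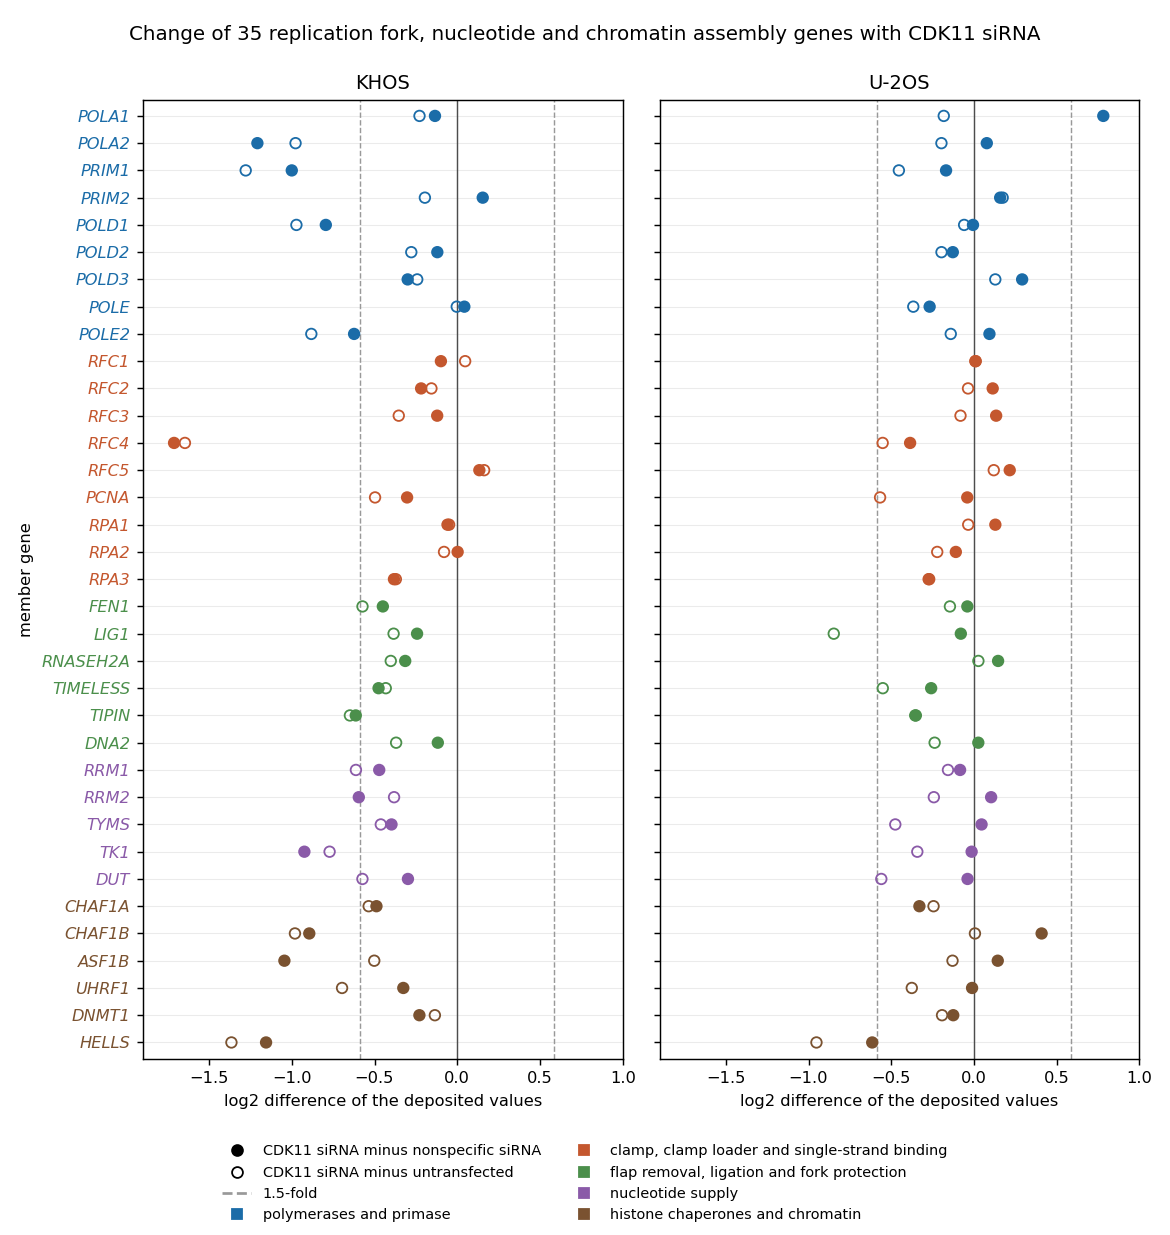
Log2 difference of the deposited values for each of the 35 measured genes (rows, coloured by role) in KHOS (left) and U-2OS (right), with CDK11 siRNA minus nonspecific siRNA as filled points and CDK11 siRNA minus untransfected as open points. Dashed lines mark 1.5-fold, and the KHOS points lie mostly left of 0, down to -1.71 for RFC4, while the filled U-2OS points spread around 0 with POLA1 at 0.78.

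Among the 9 polymerase and primase genes, 4 were lower by 1.5-fold in KHOS and the median difference from nonspecific siRNA was -0.30 in KHOS and 0.08 in U-2OS. POLA2 encodes the second subunit of polymerase alpha. Its log2 values in KHOS were 7.74 with CDK11 siRNA, 8.94 with nonspecific siRNA and 8.71 untransfected. In U-2OS they were 8.66 with CDK11 siRNA, 8.58 with nonspecific siRNA and 8.86 untransfected. The KHOS array with CDK11 siRNA thus stood apart from the other 5, at 43.3% of the nonspecific siRNA level, and POLA2 ranked 111 from the lowest of the 8878 genes in that comparison. PRIM1, the catalytic subunit of primase, had log2 values of 8.64 with CDK11 siRNA, 9.64 with nonspecific siRNA and 9.92 untransfected in KHOS. In U-2OS PRIM1 had 10.59 with CDK11 siRNA, 10.76 with nonspecific siRNA and 11.05 untransfected, so that the CDK11 siRNA array was the lowest of its line in both lines, by -1.0 and by -0.17 against nonspecific siRNA. POLD1, the catalytic subunit of polymerase delta, had 7.76 with CDK11 siRNA, 8.55 with nonspecific siRNA and 8.73 untransfected in KHOS. In U-2OS the 3 values of POLD1 lay within 8.50 to 8.56. POLE2, the second subunit of polymerase epsilon, had 9.17 with CDK11 siRNA, 9.79 with nonspecific siRNA and 10.05 untransfected in KHOS, and 10.59 with CDK11 siRNA, 10.50 with nonspecific siRNA and 10.73 untransfected in U-2OS.

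POLA1, the catalytic subunit of polymerase alpha, did not follow POLA2. In KHOS its log2 values were 8.96 with CDK11 siRNA, 9.10 with nonspecific siRNA and 9.19 untransfected. In U-2OS they were 7.90 with CDK11 siRNA, 7.12 with nonspecific siRNA and 8.08 untransfected. It is the nonspecific siRNA array of U-2OS that was low: the difference of 0.78 from nonspecific siRNA stood beside a difference of -0.18 from untransfected cells, and nonspecific siRNA differed from untransfected by -0.96. PRIM2, the large subunit of primase, was among the highest of these genes in both lines, against nonspecific siRNA by 0.15 in KHOS and 0.16 in U-2OS. Its log2 values were 8.60 with CDK11 siRNA, 8.45 with nonspecific siRNA and 8.80 untransfected in KHOS, and 10.25 with CDK11 siRNA, 10.09 with nonspecific siRNA and 10.08 untransfected in U-2OS. POLE, the catalytic subunit of polymerase epsilon, lay just over the signal limit, with 6.73 with CDK11 siRNA, 6.69 with nonspecific siRNA and 6.73 untransfected in KHOS. In U-2OS POLE had 6.13 with CDK11 siRNA, 6.40 with nonspecific siRNA and 6.50 untransfected. The accessory subunits of polymerase delta differed from nonspecific siRNA by -0.12 in KHOS and -0.13 in U-2OS for POLD2, and by -0.30 in KHOS and 0.29 in U-2OS for POLD3. The dimmer kept probe set of POLD3, with a highest value of 6.71, differed by -0.32 in KHOS and 0.58 in U-2OS.

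Among 9 genes of the clamp, the clamp loader and single-strand binding, only RFC4 was lower by 1.5-fold in KHOS, and the median difference of the 9 was -0.12 in KHOS and 0.01 in U-2OS. RFC4 encodes a small subunit of the clamp loader, replication factor C. In KHOS its log2 values were 9.22 with CDK11 siRNA, 10.93 with nonspecific siRNA and 10.87 untransfected. In U-2OS they were 10.53 with CDK11 siRNA, 10.91 with nonspecific siRNA and 11.08 untransfected. The CDK11 siRNA array was below both controls of its line in both lines, with 30.5% of the nonspecific siRNA level left in KHOS and 76.5% in U-2OS, and RFC4 ranked 22 from the lowest of 8878 genes in KHOS. The other 4 subunits of the same complex did not share this size. The brightest probe sets of RFC1, RFC2 and RFC3 differed from nonspecific siRNA by -0.22 to -0.10 in KHOS and by 0.01 to 0.13 in U-2OS. On its brightest probe set RFC5 was higher than both controls in both lines, with 10.45 with CDK11 siRNA, 10.31 with nonspecific siRNA and 10.29 untransfected in KHOS, and 11.04 with CDK11 siRNA, 10.82 with nonspecific siRNA and 10.92 untransfected in U-2OS. The other kept probe sets of RFC5 were lower than nonspecific siRNA in KHOS, by -0.19 and -0.15, and the mean over its 3 probe sets there was -0.07. A second kept probe set of RFC3 was higher by 0.64 in U-2OS, on an array pair of 8.66 with CDK11 siRNA and 8.02 with nonspecific siRNA, while the untransfected array had 9.01.

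PCNA, the sliding clamp, had log2 values of 12.79 with CDK11 siRNA, 13.09 with nonspecific siRNA and 13.29 untransfected in KHOS. In U-2OS PCNA had 12.58 with CDK11 siRNA, 12.63 with nonspecific siRNA and 13.15 untransfected, so that both transfected arrays lay below the untransfected one by about the same amount, -0.57 and -0.53. The subunits of replication protein A, which coats single-stranded DNA, differed little. RPA1 had 12.32 with CDK11 siRNA, 12.38 with nonspecific siRNA and 12.37 untransfected in KHOS, and RPA2 differed from nonspecific siRNA by 0.00 in KHOS and -0.11 in U-2OS. RPA3, the smallest subunit, was lower in both lines against both controls, by -0.38 and -0.37 in KHOS and by -0.27 and -0.27 in U-2OS.

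In the group of flap removal, ligation and fork protection, all 6 measured genes lay below nonspecific siRNA in KHOS, with a median of -0.38, and 4 of 6 did so in U-2OS, with a median of -0.06. TIPIN, which with TIMELESS forms the fork protection complex, was the only one lower by 1.5-fold in KHOS. Its log2 values were 10.47 with CDK11 siRNA, 11.09 with nonspecific siRNA and 11.12 untransfected in KHOS, and 11.15 with CDK11 siRNA, 11.50 with nonspecific siRNA and 11.50 untransfected in U-2OS. The controls of each line nearly coincided for TIPIN, and the CDK11 siRNA array lay below them in both lines. TIMELESS had 8.68 with CDK11 siRNA, 9.15 with nonspecific siRNA and 9.11 untransfected in KHOS, and 8.34 with CDK11 siRNA, 8.60 with nonspecific siRNA and 8.89 untransfected in U-2OS. FEN1, the flap endonuclease, differed from nonspecific siRNA by -0.45 in KHOS and -0.04 in U-2OS. RNASEH2A, the catalytic subunit of ribonuclease H2, differed by -0.31 in KHOS and 0.15 in U-2OS, and the nuclease and helicase DNA2 by -0.12 in KHOS and 0.03 in U-2OS. LIG1, which joins Okazaki fragments, had 5.66 with CDK11 siRNA, 5.74 with nonspecific siRNA and 6.50 untransfected in U-2OS, all under the signal limit, and 6.92 with CDK11 siRNA, 7.17 with nonspecific siRNA and 7.31 untransfected in KHOS. CLSPN, which encodes the checkpoint mediator claspin, had no probe set over the limit and was the gene just outside it. Its brightest probe set had 5.81 with CDK11 siRNA, 6.46 with nonspecific siRNA and 6.51 untransfected in KHOS, and 5.99 with CDK11 siRNA, 6.48 with nonspecific siRNA and 6.47 untransfected in U-2OS.

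All 5 nucleotide supply genes lay below both controls in KHOS, with a median of -0.47 against nonspecific siRNA, while in U-2OS their differences from nonspecific siRNA stayed within -0.08 to 0.10. TK1, the thymidine kinase of the salvage pathway, had log2 values of 7.94 with CDK11 siRNA, 8.86 with nonspecific siRNA and 8.71 untransfected in KHOS. In U-2OS TK1 had 9.37 with CDK11 siRNA, 9.38 with nonspecific siRNA and 9.71 untransfected. Its other kept probe set gave differences from nonspecific siRNA of -0.86 in KHOS and 0.02 in U-2OS, close to the -0.92 and -0.01 of the brighter one. RRM2, the small subunit of ribonucleotide reductase, had 12.14 with CDK11 siRNA, 12.73 with nonspecific siRNA and 12.52 untransfected in KHOS, and 12.06 with CDK11 siRNA, 11.96 with nonspecific siRNA and 12.31 untransfected in U-2OS. A second probe set of RRM2 showed more in KHOS, with 11.92 with CDK11 siRNA, 12.74 with nonspecific siRNA and 13.15 untransfected. RRM1, the large subunit, differed from nonspecific siRNA by -0.47 in KHOS and -0.08 in U-2OS. TYMS, thymidylate synthase, differed by -0.40 in KHOS and 0.05 in U-2OS. DUT, which hydrolyses dUTP, had 13.29 with CDK11 siRNA, 13.58 with nonspecific siRNA and 13.86 untransfected in KHOS, and 12.56 with CDK11 siRNA, 12.60 with nonspecific siRNA and 13.12 untransfected in U-2OS. For DUT, as for PCNA and LIG1, the nonspecific siRNA array of U-2OS lay near the CDK11 siRNA array and below the untransfected one.

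**Figure D2:**
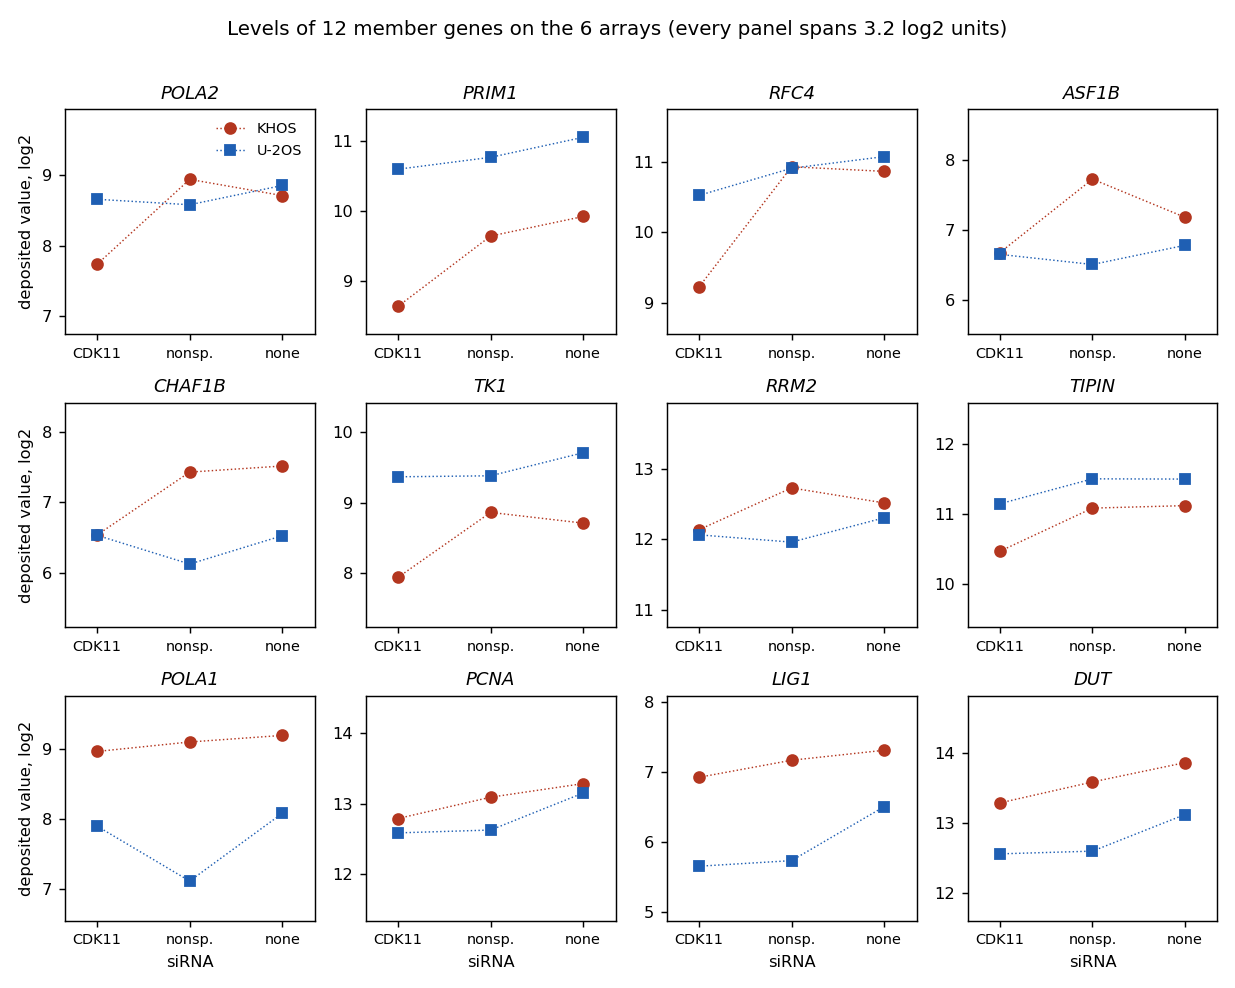
Deposited log2 values of 12 genes on the 6 arrays, with KHOS as circles and U-2OS as squares and with CDK11 siRNA, nonspecific siRNA and no transfection from left to right; each panel spans 3.2 log2 units and dotted lines only join arrays of a line. In the upper panels the KHOS array with CDK11 siRNA lies below both KHOS controls (RFC4 9.22, against 10.93 and 10.87), and in the lower row U-2OS shows a low nonspecific siRNA array for POLA1 (7.12) and both transfected arrays below the untransfected one for PCNA, LIG1 and DUT.

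The 6 genes of histone chaperones and chromatin had a median difference from nonspecific siRNA of -0.69 in KHOS and -0.07 in U-2OS, with 3 lower by 1.5-fold in KHOS. CHAF1B, the middle subunit of chromatin assembly factor 1, had log2 values of 6.54 with CDK11 siRNA, 7.43 with nonspecific siRNA and 7.52 untransfected in KHOS. In U-2OS CHAF1B had 6.53 with CDK11 siRNA, 6.12 with nonspecific siRNA and 6.52 untransfected, all under the signal limit. The KHOS value with CDK11 siRNA was under it too, so that CHAF1B was measured through the KHOS controls alone. ASF1B, a chaperone that hands histones H3 and H4 to that complex, had 6.68 with CDK11 siRNA, 7.72 with nonspecific siRNA and 7.18 untransfected in KHOS, and 6.65 with CDK11 siRNA, 6.51 with nonspecific siRNA and 6.78 untransfected in U-2OS. Its difference in KHOS was -1.04 from nonspecific siRNA and -0.50 from untransfected, so that its size depended on the control. CHAF1A, the large subunit, was lower than nonspecific siRNA on all 3 of its kept probe sets in both lines, by -0.67 to -0.38 in KHOS and by -0.62 to -0.33 in U-2OS. Its brightest probe set had 9.15 with CDK11 siRNA, 9.64 with nonspecific siRNA and 9.68 untransfected in KHOS, and 8.55 with CDK11 siRNA, 8.88 with nonspecific siRNA and 8.80 untransfected in U-2OS. UHRF1, which reads hemimethylated DNA and brings in the maintenance methyltransferase, differed from nonspecific siRNA by -0.33 in KHOS and -0.01 in U-2OS. DNMT1, that methyltransferase, differed by -0.23 in KHOS and -0.13 in U-2OS.

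HELLS encodes an SNF2 family helicase that supports DNA methylation. Read from brightest probe sets, HELLS alone of the 35 was lower than nonspecific siRNA by 1.5-fold in both lines, beside 1.95% of all genes. A dimmer kept probe set of CHAF1A, 203975_s_at, passed that limit too, with KHOS at -0.67 and U-2OS at -0.62. For HELLS the brightest probe set had log2 values of 9.79 with CDK11 siRNA, 10.94 with nonspecific siRNA and 11.15 untransfected in KHOS. In U-2OS it had 7.21 with CDK11 siRNA, 7.82 with nonspecific siRNA and 8.16 untransfected. The array with CDK11 siRNA was the lowest of its line in both lines, at 44.9% of the nonspecific siRNA level in KHOS and 65.3% in U-2OS. The next brightest probe set, 223556_at, went the same way, with differences from nonspecific siRNA of -1.02 in KHOS and -0.60 in U-2OS. The other kept probe sets did not do so in U-2OS. Probe set 220085_at had 8.0 with CDK11 siRNA, 9.43 with nonspecific siRNA and 9.71 untransfected in KHOS, while in U-2OS, under the signal limit, it had 5.51 with CDK11 siRNA, 4.36 with nonspecific siRNA and 6.13 untransfected. Probe set 227349_at had 5.07 with CDK11 siRNA, 6.56 with nonspecific siRNA and 6.99 untransfected in KHOS and stayed between 3.65 and 3.70 in U-2OS. It passed the signal limit only on the untransfected KHOS array. With the mean over the 4 kept probe sets, the difference from nonspecific siRNA was -1.28 in KHOS and -0.02 in U-2OS. By the threshold of the study's methods, 3 SD of the differences over the kept probe sets, 3 probe sets of these genes were lower in KHOS (1 of RFC4 and 2 of HELLS), beside 0.732% of all kept probe sets, and 0 were higher, beside 0.653%. In U-2OS 0 were lower, beside 0.89%, and 1 was higher (220085_at of HELLS), beside 0.976%. The study also dropped probes called absent on every array before this step, which was not done here, so its probe sets and SD may differ.

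**Figure D3:**
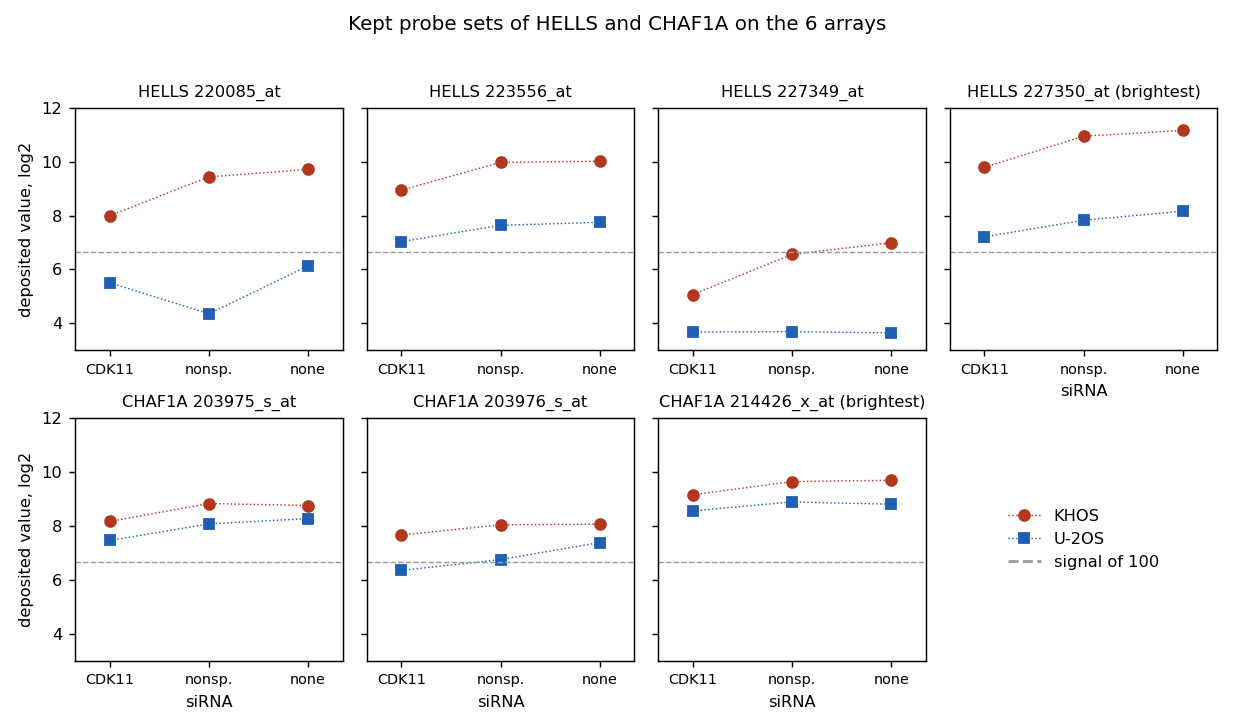
Deposited log2 values of the 4 kept probe sets of HELLS (top) and the 3 of CHAF1A (bottom) on the 6 arrays, with KHOS as circles, U-2OS as squares, CDK11 siRNA, nonspecific siRNA and no transfection from left to right, and the signal of 100 as a dashed line. Every KHOS panel has its lowest point with CDK11 siRNA, while in U-2OS 220085_at of HELLS is lowest with nonspecific siRNA, at 4.36, and 227349_at is flat.

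Set against untransfected cells, the same CDK11 siRNA arrays gave medians of -0.43 for KHOS, beside 0.00 over all genes, and -0.20 for U-2OS, beside 0.01. In KHOS 11 genes were lower by 1.5-fold, with RRM1 and UHRF1 in place of RRM2 and ASF1B, beside 9.33% of all genes, and 0 were higher, beside 9.03%. In U-2OS 2 were lower, LIG1 and HELLS, beside 5.97%, and 0 were higher, beside 4.88%. On the brightest probe sets HELLS was again the only gene of the 35 lower by 1.5-fold in both lines, 2.86% of them beside 2.6% of all genes. With the mean over its 4 kept probe sets the U-2OS difference was -0.56, short of 1.5-fold. Dimmer kept probe sets also passed 1.5-fold in both lines. For other genes these were 203975_s_at of CHAF1A (-0.59 in KHOS and -0.81 in U-2OS) and 208955_at of DUT (-1.03 in KHOS and -1.31 in U-2OS). For HELLS itself they were 223556_at (-1.07 in KHOS and -0.71 in U-2OS) and 220085_at (-1.71 in KHOS and -0.62 in U-2OS). Both comparisons of a line share its CDK11 siRNA array. In KHOS 9 genes were lower by 1.5-fold than both controls, beside 5.41% of all genes. Any difference below both controls was seen for 30 of the 35 genes in KHOS, beside 38.1% of all genes, for 19 in U-2OS, beside 31.1%, and for 17 in both lines, beside 19.4%. Above both controls lay 1 gene in KHOS, RFC5, beside 38.5%, and 6 in U-2OS (PRIM2, POLD3, RFC1, RFC5, CHAF1B and RNASEH2A), beside 34%.

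The nonspecific siRNA arrays were also set against the untransfected ones, and in U-2OS most of the genes were lower there too. This comparison gave a median of -0.08 for KHOS and of -0.17 for U-2OS, and 22 of the 35 genes lay below 0 in KHOS and 32 in U-2OS, against 48% of all genes in KHOS and 50.9% in U-2OS. No KHOS gene of the group was lower by 1.5-fold, beside 3.54% of all genes, or higher, beside 4.62%. In U-2OS POLA1 and LIG1 were lower, by -0.96 and -0.77, beside 5.63% of all genes, and 0 were higher, beside 3.75%. All 5 nucleotide supply genes lay below untransfected cells in U-2OS, with a median of -0.35. Since the difference of CDK11 siRNA from nonspecific siRNA shares that nonspecific siRNA array, its small median in U-2OS stands beside this lower control.

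With the 2 lines as replicates, limma with cell line as a block was fitted over all 8878 genes, two-sided, with Benjamini-Hochberg adjustment at 0.05. Between CDK11 and nonspecific siRNA no gene passed, 0% of all genes, and none of the 35. An unadjusted p under 0.05 was reached by 1205 of the 8878 genes. Of the 35 genes 6 reached it, a share only a little above that of all genes. They were HELLS, TIPIN, CHAF1A, RFC4, RPA3 and TIMELESS, all lower. HELLS had a log2 difference of -0.89 ± 0.17 (limma SE) and an adjusted p of 0.195 in limma. This SE comes from the residuals of all 6 arrays and a variance prior drawn from all genes. It is not the spread of the 2 lines, which lay at -1.16 in KHOS and -0.62 in U-2OS for HELLS. RFC4 had the larger difference, -1.05 ± 0.34, with an adjusted p of 0.318, and its lines lay further apart, at -1.71 in KHOS and -0.39 in U-2OS. TIPIN had -0.48 ± 0.13 with an adjusted p of 0.273. With the variance prior of limma set to follow the level, 1.34% of all genes passed, and none of the 35, where HELLS had an adjusted p of 0.0515. Between CDK11 siRNA and untransfected cells 0% of all genes passed, and none of the 35, with 13 of them among the 1625 genes at an unadjusted p under 0.05. Under the prior that follows the level 3.14% of all genes passed, with 4 of the 35, all lower: HELLS (limma adjusted p of 0.0205), DUT (0.025), PCNA (0.0377) and UHRF1 (0.0496).

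Taking both controls of a line as 1 kind left 3 residual degrees of freedom instead of 2. Then 0.248% of all genes passed in limma, and none of the 35, with 9 of them among the 1475 genes at an unadjusted p under 0.05. HELLS had -1.02 ± 0.17 (limma SE) with an adjusted p of 0.0949. Under the prior that follows the level 1.32% of all genes passed, HELLS among them with an adjusted p of 0.0367. Between nonspecific siRNA and untransfected cells 0% of all genes passed. An unadjusted p under 0.05 was reached there by 751 of the 8878 genes and by 3 of the 35, about the same share. These 3 were DUT, UHRF1 and PCNA, all lower. Under the prior that follows the level 4 genes were lower and 1 was higher there, none of them a member.

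The differences of the lines were compared gene by gene, and these share no array. Against nonspecific siRNA the KHOS difference lay below the U-2OS difference for 32 of the 35 genes, 91.4%, against 52.4% of all genes, and the median gap was -0.31. Against untransfected cells it lay below for 26 of the 35, 74.3%, against 48.5% of all genes, with a median gap of -0.27. Over the 35 genes Pearson's r between the KHOS and U-2OS differences was 0.31 and Spearman's rho was 0.26, against an r of 0.45 and a rho of 0.43 over all genes. Genes of a line share its arrays and are not independent replicates. In the limma fit of the difference between lines, which takes the 2 controls of a line as replicates, 0% of all genes passed, and none of the 35. An unadjusted p under 0.05 was reached by 349 of the 8878 genes. Of the 35 genes 5 reached it (RFC4, POLD1, CHAF1B, POLA2 and PRIM1), each lower in KHOS relative to U-2OS. CHAF1B was measured through the KHOS controls alone, which favours such a gap. The largest of these gaps was that of RFC4, -1.21 ± 0.22 (SE), with an adjusted p of 1.0, as for all members. A difference between lines was thus not established for any single gene.

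**Figure D4:**
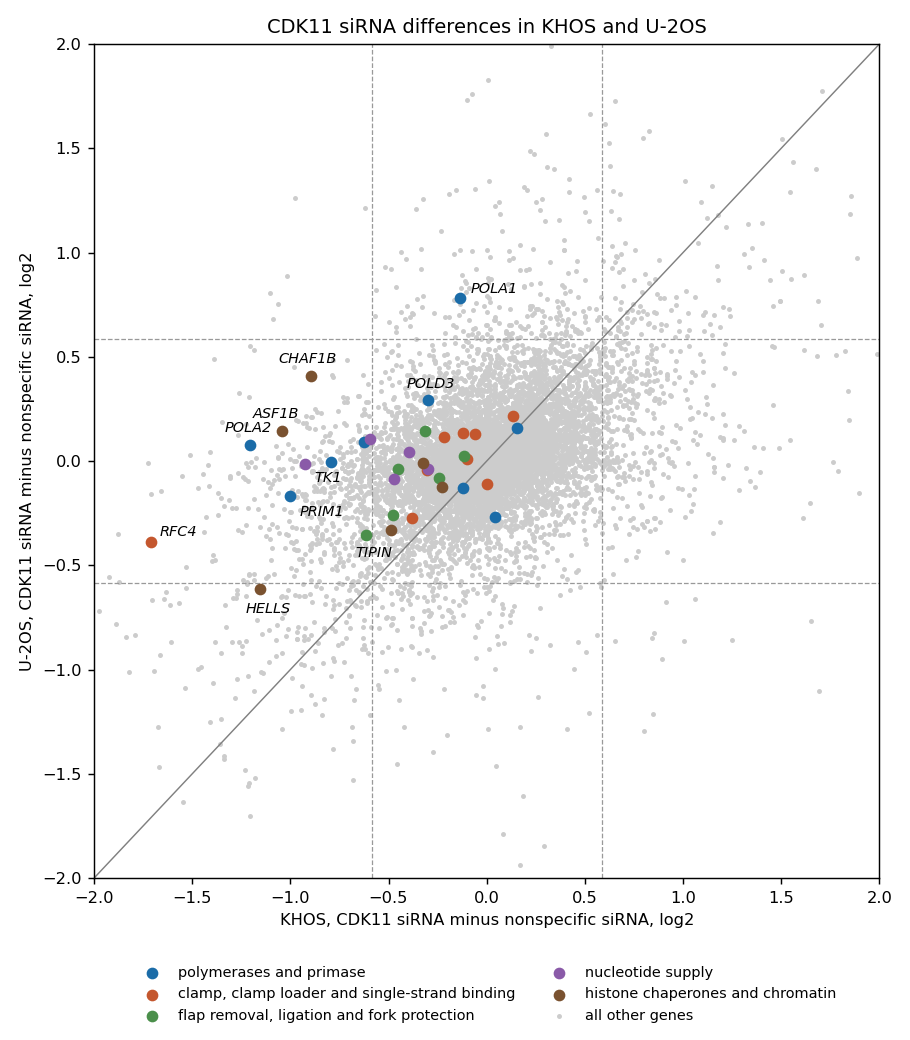
Log2 difference of CDK11 siRNA from nonspecific siRNA in KHOS (horizontal) and U-2OS (vertical) for the 35 genes, coloured by role, and for all other genes in grey; 28 genes beyond 2 in either line are not drawn. Dashed lines mark 1.5-fold and the diagonal marks equal differences. Each gene is drawn from its brightest kept probe set. On these, 32 of the 35 genes lie above the diagonal, and HELLS alone lies beyond 1.5-fold downwards in both lines.

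The lines also differed in the levels of these genes whatever the transfection. In limma with transfection as a block, 24 of the 35 genes differed between KHOS and U-2OS, 13 higher and 11 lower in KHOS, beside 71.7% of all genes, so that the share of members was close to that of all genes. POLE and LIG1, called higher in KHOS, lay under the signal limit on all U-2OS arrays and were measured through KHOS alone, which favours that direction. Of the 32 members over the limit in both lines 22 differed, 11 of them higher in KHOS, beside 67% of such genes. The 3 arrays of a line are 1 cell line, and the p-values measure the spread between arrays. HELLS differed most, with a mean of 10.63 ± 0.74 in KHOS and 7.73 ± 0.48 in U-2OS (SD, 3 arrays each), a log2 difference of 2.89 ± 0.14 (SE) and an adjusted p of 1e-04. POLA1 averaged 9.08 ± 0.11 in KHOS and 7.70 ± 0.51 in U-2OS, with an adjusted p of 0.00355. RPA1 averaged 12.35 ± 0.03 in KHOS and 11.07 ± 0.09 in U-2OS, with an adjusted p of 0.000368. Both primase subunits ran the other way. PRIM2 averaged 8.62 ± 0.18 in KHOS and 10.14 ± 0.10 in U-2OS, with an adjusted p of 0.000401, and PRIM1 averaged 9.40 ± 0.67 in KHOS and 10.80 ± 0.23 in U-2OS, with an adjusted p of 0.00275. Within the clamp loader, RFC1, RFC2 and RFC5 were lower in KHOS on their brightest probe sets, by -0.59 to -0.58, and RFC3 was higher, by 0.83. The dimmer kept probe sets of RFC2 and RFC3 kept these directions, but those of RFC1 and RFC5 did not separate the lines. On 208021_s_at of RFC1 the KHOS arrays spanned 9.12 to 9.49, beside 8.94 to 9.29 for U-2OS. With KHOS first, the spans for RFC5 were 10.52 to 11.05 beside 10.17 to 10.64 on 203209_at. On 203210_s_at they were 7.86 to 8.45 beside 7.98 to 8.35. RFC4 averaged 10.34 ± 0.97 in KHOS and 10.84 ± 0.28 in U-2OS, with an adjusted p of 0.169, the KHOS spread being that of its CDK11 siRNA array. Of the chromatin genes CHAF1A, UHRF1 and DNMT1 were higher in KHOS, by 0.75, 0.78 and 0.92.

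Other genes of these processes were read from lists beside the group. Of 17 measured other fork genes (of 20 listed), 6 were lower by 1.5-fold than nonspecific siRNA in KHOS and 0 were higher, with a median of -0.43, while in U-2OS 0 passed in either direction and the median was -0.06. Set against untransfected cells, 10 of the 17 were lower in KHOS, with a median of -0.64, beside 9.33% of all genes. In U-2OS 1 was lower, beside 5.97%, with a median of -0.22 and 15 of the 17 below 0. None was higher in either line. CDC45, a part of the replicative helicase, differed from nonspecific siRNA by -1.11 in KHOS and -0.32 in U-2OS (limma adjusted p of 0.309), and the nuclease EXO1 by -0.71 in KHOS and -0.27 in U-2OS. Of 17 other nucleotide supply genes (of 20 listed), 0 were lower or higher by 1.5-fold in either line, with medians of -0.22 in KHOS and -0.01 in U-2OS. UMPS, of pyrimidine synthesis, differed by -0.43 in KHOS and -0.51 in U-2OS, and CAD, which opens that pathway, by -0.55 in KHOS and -0.01 in U-2OS. Of 13 other chromatin assembly genes (of 15 listed), 1 was lower and 1 higher in KHOS, and likewise in U-2OS, with medians of -0.28 in KHOS and -0.13 in U-2OS. The histone binding protein RBBP4, which is also a subunit of chromatin assembly factor 1, differed by -0.75 in KHOS and -0.23 in U-2OS. KMT5A, a histone H4 methyltransferase, differed by -0.43 in KHOS and -0.65 in U-2OS.

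Regulators and proliferation genes were read in the same way. Of 11 measured genes of the E2F and RB families (of 13 listed), 2 were lower by 1.5-fold in KHOS and 0 were higher, with medians of -0.27 in KHOS and -0.02 in U-2OS. E2F1, an activator of S phase genes, differed by -1.0 in KHOS and -0.51 in U-2OS (limma adjusted p of 0.213), and E2F8, a repressor of the same genes, by -1.07 in KHOS and 0.07 in U-2OS. E2F8 was measured only through the KHOS controls, with 7.18 with nonspecific siRNA and 7.84 untransfected. Its values with CDK11 siRNA in KHOS and on all U-2OS arrays were 6.05 to 6.52, under the signal limit. All 6 S phase cyclin and proliferation genes were measured, with medians of -0.27 in KHOS and 0.21 in U-2OS. Set against untransfected cells, their medians were -0.53 in KHOS and -0.31 in U-2OS. CCNE1, the cyclin of S phase entry, differed by -1.45 in KHOS and -0.99 in U-2OS (limma adjusted p of 0.171, and 0.0281 with the prior that follows the level). Its nonspecific siRNA arrays lay above the untransfected ones, by 0.53 in KHOS and 0.68 in U-2OS. From untransfected cells CCNE1 differed by -0.93 in KHOS and -0.31 in U-2OS. MKI67, a marker of cycling cells, differed by -0.40 in KHOS and -0.15 in U-2OS. The other 4 genes (CCNE2, CCNA2, CCNB1 and CCNB2) had differences of -0.38 to 0.07 in KHOS and of 0.18 to 0.71 in U-2OS, where CCNE2 was higher by 1.5-fold. The CCNE2 value with nonspecific siRNA in U-2OS was 6.18, under the signal limit. From untransfected cells these 4 genes differed by -0.59 to -0.18 in KHOS and by -0.31 to 0.21 in U-2OS. Against untransfected cells the prior that follows the level passed GINS2, TOP2A, RBBP4 and MKI67 as lower and E2F7 as higher among these lists, with limma adjusted p-values of 0.0389, 0.0424, 0.0476, 0.0414 and 0.00977. Nonspecific siRNA also differed from untransfected cells in the same direction, for E2F7 by 0.65 in KHOS and 0.64 in U-2OS. In the same sequence of lines it was -0.32 and -0.39 for GINS2 and -0.40 and -0.66 for TOP2A. For RBBP4 it was -0.12 and -0.24, and for MKI67 -0.44 and -0.52. The part of these genes, and of the share of cycling cells, in the values of the fork genes was not tested.

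The promoters of the group were searched for E2F letters, since E2F control is a textbook feature of many of these genes. The members were chosen by name and not by sequence, but as genes of this kind. A higher share of E2F letters than among all genes can therefore come from the choice alone. The genes they are set beside were not limited to measured genes or matched for base content. RefSeq promoters of assembly GRCh38.p14, from 250 bases before to 50 bases after the start, were at hand for 32 of the 36 genes (43 promoters). The letters searched, on both strands, were TTTCCCGC, TTTCGCGC, TTTGCCGC and TTTGGCGC for E2F, CCAAT for the CCAAT box and TTTGAA for the cell cycle homology region, and matches of one kind may overlap each other, as they do for TIPIN. E2F letters were found in a promoter of 14 of the 32 genes, 43.8%, beside 3.99% of the 27305 genes of the table. CCAAT was found in 19, 59.4%, beside 39.7%, and TTTGAA in 3, 9.38%, beside 18.2%. Of the 11 genes that were lower by 1.5-fold in KHOS against nonspecific siRNA, 4 had E2F letters (POLA2, POLE2, TIPIN and HELLS), 36.4%, and of the other 21 genes 10 did, 47.6%. A match describes the letters and not a bound site, and no match says only that these letters are not in this window.

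The promoters shown are those of HELLS, lower in both lines (chr10:94545538-94545837, plus strand), POLA2, lower by 1.5-fold in KHOS (chr11:65261712-65262011, plus strand), TIPIN at 1 of its 2 listed starts (chr15:66356636-66356935, minus strand), PCNA at 1 of its 2 listed starts, with matches to E2F letters and CCAAT (chr20:5126573-5126872, minus strand), and RFC4, which was lowest in KHOS (chr3:186806433-186806732, minus strand). Capitals mark every match to the letters searched.
HELLS: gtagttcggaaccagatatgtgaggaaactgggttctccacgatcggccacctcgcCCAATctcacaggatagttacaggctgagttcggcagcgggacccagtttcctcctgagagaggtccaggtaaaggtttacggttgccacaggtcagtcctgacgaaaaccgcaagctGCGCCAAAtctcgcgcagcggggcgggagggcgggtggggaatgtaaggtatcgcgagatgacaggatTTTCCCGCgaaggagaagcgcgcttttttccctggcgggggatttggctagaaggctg
POLA2: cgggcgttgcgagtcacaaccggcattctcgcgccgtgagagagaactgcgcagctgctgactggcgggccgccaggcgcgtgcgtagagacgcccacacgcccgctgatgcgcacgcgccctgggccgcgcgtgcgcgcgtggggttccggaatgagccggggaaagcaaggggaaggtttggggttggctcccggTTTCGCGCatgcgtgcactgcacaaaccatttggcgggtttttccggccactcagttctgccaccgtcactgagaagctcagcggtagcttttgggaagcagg
TIPIN: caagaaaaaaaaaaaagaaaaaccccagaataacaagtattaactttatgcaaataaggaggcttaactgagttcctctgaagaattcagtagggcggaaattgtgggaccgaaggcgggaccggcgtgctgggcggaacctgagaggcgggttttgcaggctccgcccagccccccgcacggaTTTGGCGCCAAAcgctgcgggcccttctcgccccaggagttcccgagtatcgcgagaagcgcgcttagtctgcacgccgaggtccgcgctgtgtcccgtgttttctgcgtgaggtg
PCNA: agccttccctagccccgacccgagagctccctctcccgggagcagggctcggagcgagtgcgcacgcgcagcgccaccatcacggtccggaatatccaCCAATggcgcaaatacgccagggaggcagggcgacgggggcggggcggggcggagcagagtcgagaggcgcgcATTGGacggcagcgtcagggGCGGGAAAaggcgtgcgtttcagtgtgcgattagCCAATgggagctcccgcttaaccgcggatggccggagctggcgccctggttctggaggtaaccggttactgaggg
RFC4: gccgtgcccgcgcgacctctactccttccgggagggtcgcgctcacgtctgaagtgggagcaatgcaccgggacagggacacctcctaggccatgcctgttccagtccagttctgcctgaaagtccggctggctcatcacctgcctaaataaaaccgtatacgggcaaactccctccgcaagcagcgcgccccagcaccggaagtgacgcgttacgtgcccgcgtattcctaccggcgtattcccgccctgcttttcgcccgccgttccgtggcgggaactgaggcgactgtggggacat
HELLS carries E2F letters at positions -76 and -8 from the start and 1 CCAAT, POLA2 carries E2F letters at position -53, and TIPIN carries them at -66 and -62 on opposite strands. PCNA carries E2F letters at -59 with 3 CCAAT matches, and differed from nonspecific siRNA by -0.30 in KHOS and -0.04 in U-2OS. RFC4 carries none of the letters searched, although it had the lowest difference of the 35 genes in KHOS.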

How the data were processed

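Total RNA of KHOS and U-2OS cells was hybridised to Affymetrix GeneChip arrays, 1 for each line and transfection, 6 in all. The authors normalized the arrays with gcrma, and the deposited values are log2 signals of 54675 probe sets; they were used as given. Probe sets were named through the platform annotation (41097 with 1 gene symbol, 1801 with several, 11777 with none, the last 2 kinds not used; 41043 of those with 1 symbol matched a current gene by ID). Of all probe sets 16397 exceeded a signal of 100, on at least 1 array. Each gene was read from its kept probe set of the highest mean over the 6 arrays. Differences within a line are array minus array, with 1.5-fold, 0.585 on the log2 scale, as the limit for counts. limma 3.58.1 in R 4.3.3 (lmFit and eBayes, after Benjamini-Hochberg adjustment) tested all 8878 genes with cell line as a block, and was tested on simulated data. Tables were handled in pandas 2.3.3 and numpy 2.4.6 under Python 3.11.15, and figures drawn with matplotlib 3.10.9. The number of arrays limits the precision. Nothing in the sources says that the pooled flasks were separate cultures, so p-values measure the spread between these arrays. Values in full were set for genes past 1.5-fold in both lines, for the 5 lowest and 5 highest of each line, for genes whose probe sets differ in sign with 1 past 1.5-fold, and for genes that pass a limma fit. Other members' values, and those of the promoters printed, were chosen after they had been seen. From each other list the 2 genes with the largest mean difference over both lines were named. The members and lists were chosen with earlier results of these data known. Alternatives were the mean over kept probe sets, no filter or a limit of 8, median centring, other fold limits, a variance prior that follows the level, no cell line term, fits on 4 arrays or without each array in turn, and a shorter promoter. PRIM2 probe sets shared with PRIM2BP were not used.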

Additional observations from a re-analysis of the deposited data

Results flagged for a closer look

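Probe set 220085_at of HELLS was picked out because the lines moved in opposite directions on it. With CDK11 siRNA it differed from nonspecific siRNA by -1.44 in KHOS and by 1.15 in U-2OS. In U-2OS all 3 arrays lay under the signal limit, with 5.51 with CDK11 siRNA, 4.36 with nonspecific siRNA and 6.13 untransfected, so that the difference from untransfected cells was -0.62. In the limma fit of the difference between lines over all kept probe sets, with the 2 controls of a line as replicates, it had a log2 value of -1.84 ± 1.05 (SE) and an adjusted p of 1.0. On the brightest probe set of HELLS the lines moved in the same direction.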

How the results depend on the processing

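The counts of genes past a fold limit moved with that limit, and each is given beside the share of all genes at the same setting. At 2-fold, 5 genes in KHOS (2.14% of all genes) and 0 in U-2OS (0.845%) were lower than nonspecific siRNA, and 3 in KHOS (2.62%) and 0 in U-2OS (1.66%) were lower than untransfected cells. Beyond 3 SD on the brightest probe set, an alternative chosen after seeing the data, 1 gene in KHOS, RFC4, and 0 in U-2OS were lower, against either control (0.529% to 0.788% of all genes). Where any kept probe set could pass 3 SD, which changes the choice of probe set too, 2 genes in KHOS (1.09%) and 0 in U-2OS (1.37%) were lower than nonspecific siRNA, and 2 genes in KHOS (0.856%) and 1 in U-2OS (1.49%) were lower than untransfected cells. With the mean over kept probe sets U-2OS had 0 lower than nonspecific siRNA (3.77%) and 4 lower than untransfected cells (6.24%), namely LIG1, TYMS, DUT and CHAF1A, HELLS no longer being among them. With a limit of 8 it had 1 lower than untransfected cells (4.97%), HELLS. The variance prior that follows the level gave 4 genes lower than untransfected cells in limma and 1 lower than both controls, where the fit with no trend gave 0; the cause was not tested. Medians over the genes kept within -0.36 to -0.32 in KHOS and -0.04 to -0.01 in U-2OS against nonspecific siRNA. Of 272 single gene differences under the alternatives, 262 stayed within 0.1 and 10 moved further, each of these with the mean over kept probe sets. None past 1.5-fold changed sign, and 6 smaller ones did, among them RFC5 in KHOS (-0.07) and RRM1 in U-2OS (0.06) with that mean. Between KHOS and U-2OS 22 to 26 genes passed with all arrays. Without each array in turn, also chosen after seeing the data, 20 to 24 passed there, and 0 passed between transfections or in the difference between lines, with a single array left in 1 arm assumed to vary like the others. The difference between lines needs both CDK11 siRNA arrays and was refitted only without controls. In the 150 bases before the start E2F letters were in 34.4% of the genes, beside 2.24% of all. The cell line served as the block; the labels carry no other replicate numbers.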

Other observations

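A dim probe set of RFC3, 231119_at, which stayed under the signal limit, had 4.42 with CDK11 siRNA, 5.54 with nonspecific siRNA and 5.30 untransfected in KHOS, a difference of -1.13 from nonspecific siRNA, while the brightest probe set of the gene differed by -0.12. The kept probe sets that PRIM2 shares with PRIM2BP differed from nonspecific siRNA by -0.47 and -0.17 in KHOS and by 0.19 and 0.55 in U-2OS. They cannot be given to either gene.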
